A study of Xenopus laevis with 72 samples.

Results

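The response of whole Xenopus laevis embryos to retinoic acid (RA) was measured at the moment the treatment was washed out (0 h). Embryos of wildtype genotype were exposed for 2 h to 10 nM all-trans RA, from late blastula (stage 9.5) to early gastrula (stage 10.25), and were set against control embryos of the same age that received no RA. The samples were chosen by their titles, as RA or control at 0 h in clutches G to L, which gave 6 RA samples and 6 control samples out of 72 in the series. The other samples were the same treatments 1.5, 3 and 4.5 h after the wash, and embryos given 50 uM DEAB, an inhibitor of the enzymes that make RA. Each clutch came from the eggs of 1 female fertilized in vitro, and 5 to 10 embryos were pooled per sample, so the RA and control samples of 1 clutch are siblings and the 6 clutches are the replicates. RA was dissolved in DMSO, and the sources used here do not say whether the controls received that solvent.

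RA is made from vitamin A in 2 steps. Retinol is first oxidized, reversibly, to retinaldehyde by enzymes such as those encoded by rdh10 and sdr16c5, and retinaldehyde is then oxidized to RA by the aldh1a enzymes. The reverse step, retinaldehyde to retinol, is carried out by reductases such as the product of dhrs3, and RA itself is broken down by the cyp26 enzymes. RA binds nuclear receptors that act on target genes, among them hox genes of the anterior body, and in gastrula embryos it takes part in head-to-tail patterning. X. laevis has 2 subgenomes, so many genes exist as a pair of homoeologs named L and S.

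Transcripts of 24 genes, 23 targets and the reference gene gapdh, were quantified by high-throughput real-time PCR. The threshold cycle (Ct) is the cycle at which the signal crosses a set level, so a lower Ct means more template. At 0 h Ct ran from 10.22 to 25.29. The log2 relative expression used below is the Ct of gapdh minus that of the gene, centred on the median of that gene over the 72 samples: 1 unit is a doubling, and levels can be compared between samples but not between genes. The template number behind a Ct is unknown, so precision comes from the spread between samples. Unless stated otherwise, the SE, interval and limma p below use the spread over all 72 samples. They do not measure the spread of the RA minus control differences of the 6 clutches alone. In values against gapdh, the RA sample of clutch G stood apart for several genes. These were cyp26a1.L, cyp26a1.S and rdh10.S against its control, and rdh14.L in its level. Means without clutch G are given for cyp26a1.L, cyp26a1.S and rdh10.S and for some genes that did not pass the test.

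At the end of the pulse, 6 of the 23 target genes were higher in RA embryos than in control embryos (26.1% of the genes tested) and 0 were lower (0%), with limma, clutch as a block and a Benjamini-Hochberg adjusted p under 0.05. The RA and control ranges did not overlap for 4 of the 23 (17.4%). Both counts include hoxd3.L, which had 3 RA and 2 control values and no clutch with both. The genes that rose were dhrs3.L, cyp26a1.S and cyp26a1.L, whose products remove retinaldehyde or RA, and 3 hox genes, of which hoxd3.L is described below and the other two are not reported singly. Among lower genes 1, rdh10.S, had an unadjusted p under 0.05 in limma (0.0280, or 0.0873 without the clutch block), and rdh10.L had one in an exact sign-flip test over clutches.

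The strongest change measured in all 12 samples among the genes reported here was that of dhrs3.L (gene ID 444269), which encodes the retinaldehyde reductase. Its log2 level in RA embryos of clutches G to L was -0.685, 0.045, -0.565, -0.605, -0.815 and -1.185, against -2.995, -2.685, -3.095, -3.995, -3.585 and -3.545 in control embryos. Every RA sample was above every control sample. The difference within a clutch ran from 2.31 to 3.39, a ratio of 4.96 to 10.5. The mean difference was 2.68 (SE 0.24, 95% interval 2.19 to 3.17, n = 6 clutches), or 6.42-fold (4.57 to 9.01), with a limma adjusted p of 2.07e-14. In a limma fit restricted to the 12 RA and control samples at 0 h the adjusted p was 2.89e-05.

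The RA hydroxylase gene cyp26a1.S (gene ID 398094) was at -0.585, 0.795, 0.145, 0.495, 1.635 and 1.045 in RA embryos of clutches G to L, against -1.025, -1.415, -2.105, -2.435, -0.745 and -1.315 in control embryos. The groups did not overlap, and clutch G had the lowest RA level. The mean difference was 2.10 (SE 0.39, 95% interval 1.32 to 2.87), or 4.27-fold, with a limma adjusted p of 7.96e-06. Within clutches it was 0.44 in clutch G and 2.21 to 2.93 in the other 5, whose mean was 2.43. In differences of Ct alone it was 1.55 in clutch G and 1.85 to 2.84 in the others. The limma fit restricted to the 12 samples gave an adjusted p of 0.00234.

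Its homoeolog cyp26a1.L (gene ID 496314) was at -4.725, -0.495, -0.545, -0.245, 0.095 and -0.165 in RA embryos of clutches G to L, against -2.525, -2.555, -2.775, -3.385, -1.865 and -2.955 in control embryos. In clutches H to L every RA sample was above every control sample, whereas the RA sample of clutch G was below all 6 controls. The mean difference was 1.66 (SE 0.42, 95% interval 0.82 to 2.51, higher in 5 of 6 clutches), or 3.17-fold, with a limma adjusted p of 0.000862. Without clutch G it was 2.44. The difference no longer passed the test (adjusted p = 0.147) in a fit restricted to the 12 RA and control samples at 0 h, where the spread came from these alone.

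**Figure D1:**
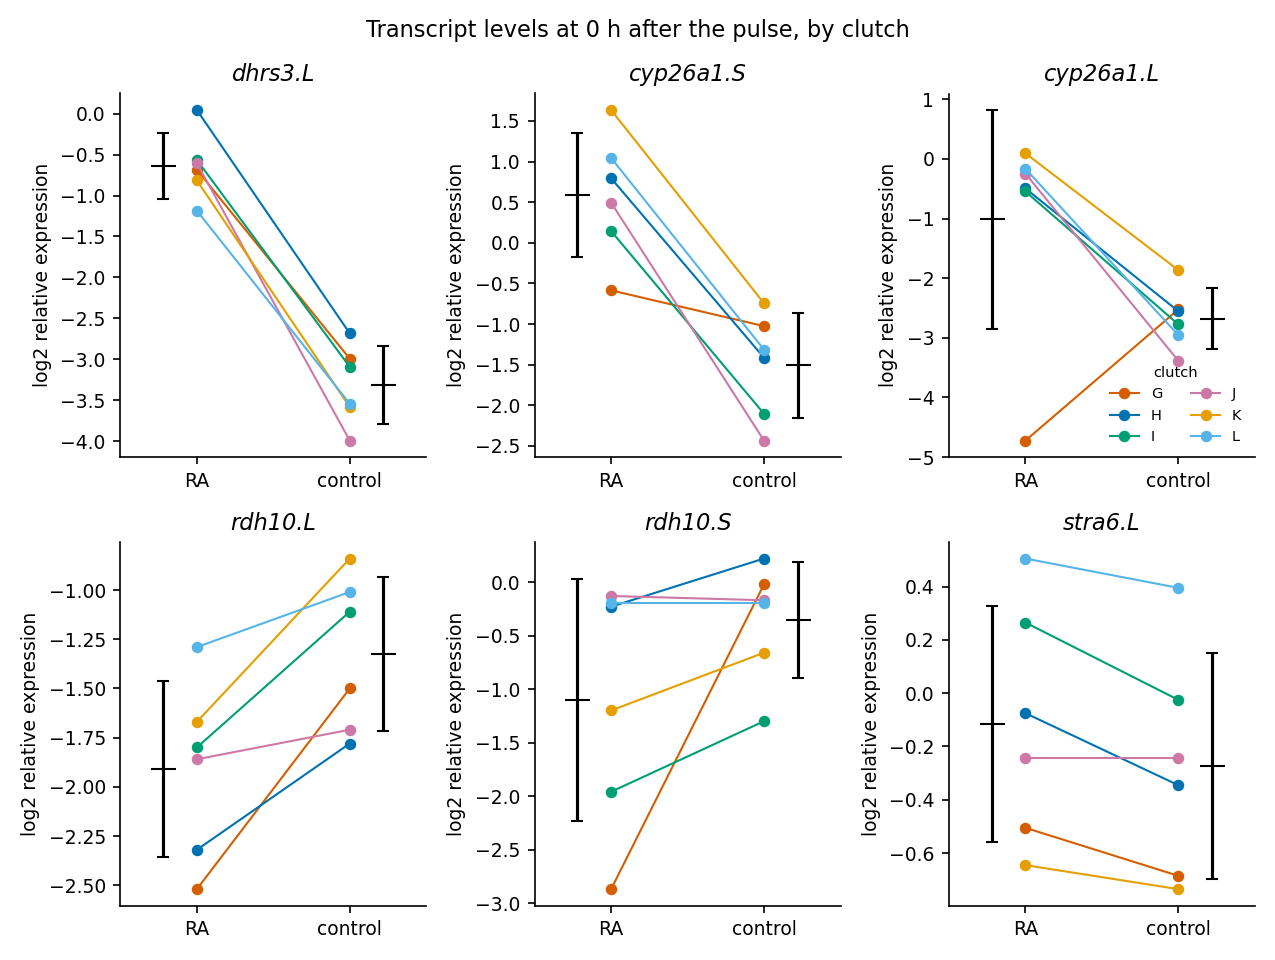
Log2 relative expression of 6 genes at 0 h, RA embryos left and control embryos right, with a line for each clutch G to L and bars for the mean and SD of 6 clutches. All 6 lines of dhrs3.L and cyp26a1.S fall towards control, 1 line of cyp26a1.L (clutch G, RA level -4.725) runs the other way, and the 2 groups overlap for rdh10.L, rdh10.S and stra6.L.

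Of the 7 genes of retinaldehyde reduction and RA degradation, 3 rose and 0 fell, and the other 4 missed the threshold. Over all 23 genes 26.1% were called higher. The median difference of the list was 0.77, beside 0.39 over all 23 genes. The study chose the panel for its link to RA, so neither figure describes genes in general. The second RA hydroxylase in the panel, cyp26c1, differed by 0.77 for cyp26c1.L (gene ID 108696124, 95% interval -0.18 to 1.72, adjusted p = 0.256) and by 0.41 for cyp26c1.S (gene ID 735026, 95% interval -0.51 to 1.33, adjusted p = 0.615). For cyp26c1.L the differences in clutches G to L were 0.81, 0.94, 0.95, 0.27, 1.39 and 0.25, all above 0 against gapdh but not against the panel mean, where J and L were at -0.14 and -0.17. It passed the test in the fit to the 12 samples (adjusted p = 0.0193). For cyp26c1.S they were above 0 in 5 of 6 clutches, from -0.78 to 1.18.

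The retinaldehyde reductase genes rdh13.L (gene ID 444106) and rdh14.L (gene ID 108717195) differed by 0.08 (95% interval -0.54 to 0.70, adjusted p = 0.872) and by -0.08 (95% interval -0.43 to 0.26, adjusted p = 0.816). Both intervals lie below that of dhrs3.L, which starts at 2.19, and the difference between these genes was not tested.

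In RefSeq's annotation of the Xenopus_laevis_v10.1 assembly, cyp26a1 and cyp26c1 lie next to each other in both subgenomes, with 0 annotated genes between them. The response of cyp26a1.S exceeded that of cyp26c1.S by 1.69 ± 1.23 (SD, n = 6), with 5 of 6 clutches above 0 (two-sided exact permutation of signs, 64 assignments, p = 0.0625). For the L members the excess was 0.90 ± 2.11 (SD, n = 6), above 0 in 5 of 6 clutches (exact sign-flip test, p = 0.344). Clutch G was the exception in both, at -0.39 and -3.01. Without it the mean excess was 2.10 for S and 1.68 for L. The Ct of cyp26a1.S was 10.22 to 11.64 in RA and 12.64 to 13.49 in control embryos. That of cyp26c1.S was later, at 19.12 to 20.88 and 19.55 to 21.48. For the L members it was 12.55 to 16.82 and 15.48 to 16.36 for cyp26a1.L, and 17.89 to 19.98 and 19.28 to 21.04 for cyp26c1.L. Whether the later Ct of cyp26c1 bears on the excess was not tested. The smallest p that 6 clutches allow is 0.03125, and this contrast of neighbours was chosen after the values had been seen.

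None of the 5 genes of RA synthesis passed the test in either direction, with a list median of -0.20. The retinol dehydrogenase gene rdh10.L (gene ID 446860) was at -2.52, -2.32, -1.80, -1.86, -1.67 and -1.29 in RA embryos of clutches G to L, against -1.50, -1.78, -1.11, -1.71, -0.84 and -1.01 in control embryos. Each RA sample was below its own control, but the 2 groups overlapped. The mean difference was -0.59 (95% interval -1.18 to 0.01, adjusted p = 0.153), and the fit restricted to the 12 samples gave it an adjusted p of 0.0253.

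For rdh10.S (gene ID 431995) the differences in clutches G to L were -2.85, -0.45, -0.66, 0.04, -0.54 and 0.00. Against gapdh, clutch G alone was below -1. The mean was -0.74 (95% interval -1.40 to -0.08, limma adjusted p = 0.0919). It became -0.32 without clutch G (adjusted p = 0.566) and passed the test without clutch J (-0.90, adjusted p = 0.0438). In differences of Ct alone rdh10.S was at -1.74 in clutch G, -1.06 in clutch I and -0.87 to 0.36 in the others.

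The 2 retinaldehyde dehydrogenase genes had unequal spreads over clutches. Their Ct at 0 h also differed, at 13.44 to 16.12 in RA and 13.38 to 15.66 in control embryos for aldh1a2.L. For aldh1a3.L the Ct was 21.91 to 24.71 in RA and 21.9 to 24.8 in control embryos. Whether the later Ct bears on the wider spread was not tested. For aldh1a2.L (gene ID 399389) the RA minus control difference stayed between -0.67 and 0.10, with a mean of -0.20 (95% interval -0.58 to 0.18, adjusted p = 0.550), or -0.11 without clutch G. For aldh1a3.L (gene ID 733178) it ran from -1.97 in clutch H to 1.73 in clutch G, above 0 in 3 clutches and below 0 in 3, and the mean of 0.02 (95% interval -0.91 to 0.94) averages values that far apart. The retinol dehydrogenase gene sdr16c5.L (gene ID 444148) differed by 0.06 (95% interval -0.31 to 0.42, adjusted p = 0.872).

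Among the 4 genes of binding and transport 0 rose and 0 fell, with a list median of 0.27. The cellular RA-binding protein crabp2 carries RA towards its nuclear receptors. Its gene crabp2.L (gene ID 378522) differed by 0.73 (95% interval -0.12 to 1.57, adjusted p = 0.229), above 0 in 5 of 6 clutches, with -0.76 in clutch I and 0.35 to 1.46 in the others. Its homoeolog crabp2.S (gene ID 108700362) differed by 0.39 (95% interval -0.81 to 1.59, adjusted p = 0.699), from -1.17 in clutch I to 1.91 in clutch H. Its mean was 0.14 without clutch G, 0.086 without H and 0.70 without I. The Ct of crabp2.S was late, at 20.32 to 23.01 in RA and 20.11 to 25.07 in control embryos. The gene for the vitamin A uptake receptor stra6.L (gene ID 108711302) had the narrowest spread over clutches, against gapdh, of the genes reported here. Its mean difference was 0.16 ± 0.11 (SD, n = 6), with an adjusted p of 0.561. In differences of Ct alone its SD was 0.64 and that of dhrs3.L 0.53, so it was not the narrowest there.

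Of the 6 hox genes that the study listed as RA targets, 2 rose and 4 did not pass the test, near the 26.1% called higher over all 23 genes. The list median was 0.59, beside 0.39 over all genes. The 4 that did not pass were the paralogue group 1 gene hoxb1.S, the group 3 gene hoxa3.S and the group 4 genes hoxb4.S and hoxd4.L. Their differences were 0.62 for hoxb1.S (gene ID 108702519, 95% interval -0.42 to 1.66), 0.56 for hoxa3.S (gene ID 379985, -0.77 to 1.89), 0.16 for hoxd4.L (gene ID 100380950, -1.06 to 1.37) and -0.09 for hoxb4.S (gene ID 734796, -0.98 to 0.79). The adjusted p ran from 0.490 to 0.872. These genes differed in direction between clutches: hoxb1.S was 1.96 and 2.08 higher in RA embryos of clutches G and H but differed by -0.95 in both J and L. For hoxd4.L the range was -1.62 in clutch L to 1.41 in clutch I. Without clutch G the mean was 0.36 for hoxb1.S and 0.014 for hoxd4.L. The Ct of hoxb1.S was 19.98 to 22 in RA and 20.26 to 23.56 in control embryos. That of hoxd4.L was 20.71 to 23.72 and 21.23 to 24.53. Whether such late Ct bears on the unlike directions was not tested. Embryos were measured whole, so fewer cells with a transcript and less transcript per cell cannot be told apart.

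The largest fitted difference belonged to hoxd3.L (gene ID 100036911), a group 3 hox gene outside that list, and it rests on no clutch in common. A value was present in 3 of 6 RA samples and 2 of 6 control samples (Fisher's exact test, two-sided, p = 1). The RA values were 5.35 in clutch G, 2.62 in H and 9.45 in K, at Ct 15.78, 19.39 and 13.8. The control values were -2.26 in clutch I and -4.16 in J, at Ct 24.27 and 25.29. The 2 groups did not overlap. The fit gave 9.53 (SE 1.17, 95% interval 7.16 to 11.9, limma adjusted p = 7.10e-09), a difference estimated across clutches through the other samples of the series, and it could not be estimated from the 12 samples alone. The SD was 3.44 for the 3 RA values and 1.34 for the 2 control values. The SE, interval and p rest on the spread over all groups of the series, so they do not measure the spread of these RA values.

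In the 66 samples other than RA at 0 h, hoxd3.L had 50 values, from -4.16 to 3.28. The RA values of clutches G and K were above all of these. RA embryos 1.5 h after the wash had 3 values, from -3.58 to -1.79, and DEAB embryos at 0 h had 3, from -3.65 to -1.76. No reason for the missing values is given in the sources used here.

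**Figure D2:**
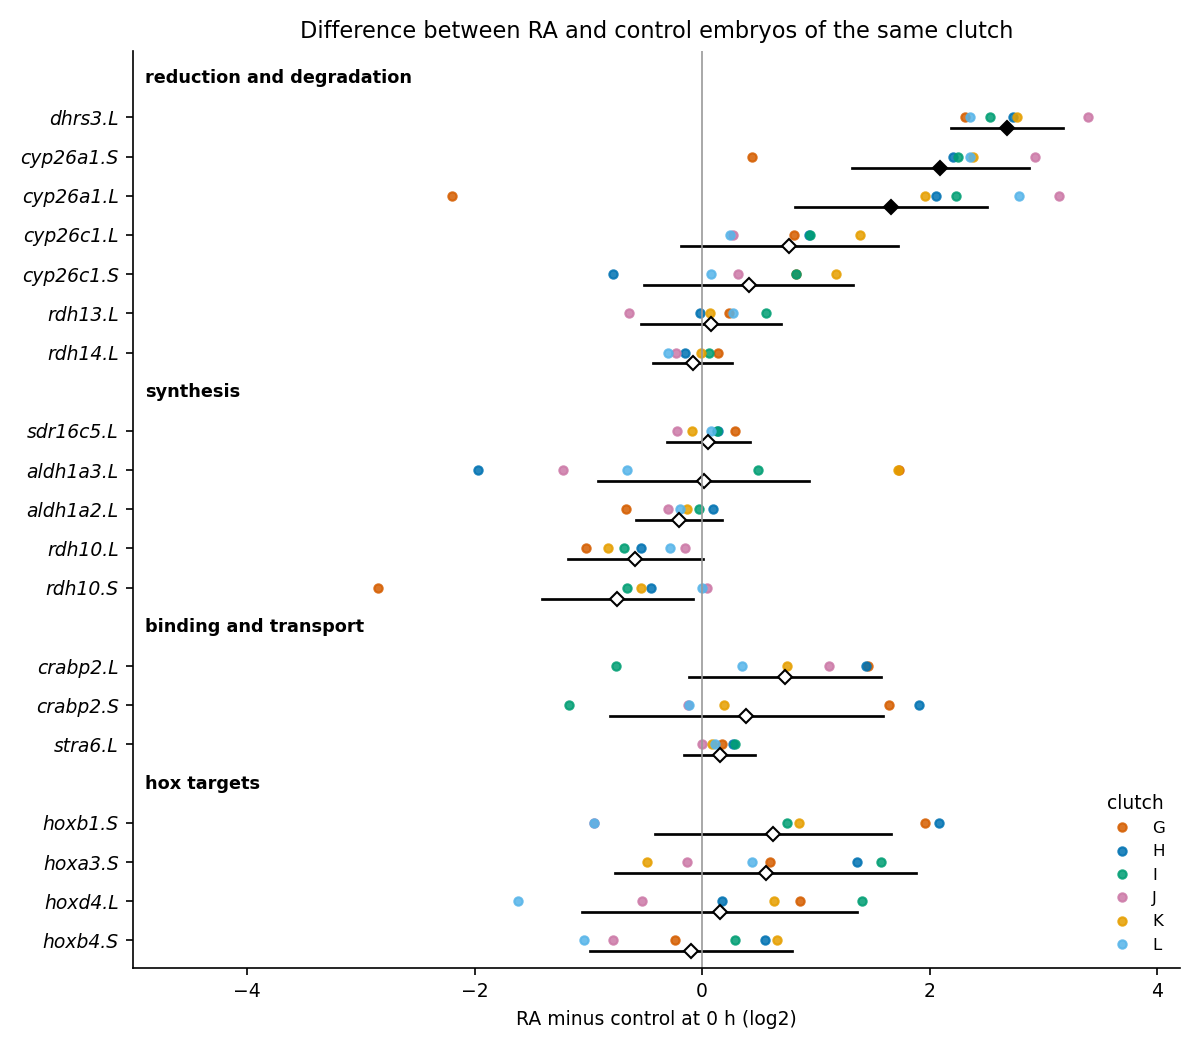
RA minus control difference at 0 h (log2) for the 19 genes reported singly that had a value in all 12 samples, grouped by role. Small dots are the 6 clutches, diamonds the mean with its 95% limma interval, and filled diamonds the 3 genes past the threshold, dhrs3.L, cyp26a1.S and cyp26a1.L.

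Since all of these values are relative to gapdh, the reference was examined in the same samples. Its Ct in clutches G to L was 11.41, 12.29, 12.69, 11.62, 13.53 and 12.36 in RA embryos, against 12.52, 12.92, 12.29, 11.41, 13.2 and 12.72 in control embryos. It was lower in RA embryos in 3 of 6 clutches, most in clutch G, by 1.11 cycles. The mean was 12.3 ± 0.76 in RA embryos and 12.5 ± 0.62 in control embryos, with a difference of -0.19 ± 0.61 (SD, n = 6; p = 0.469 by exact two-sided sign-flip permutation).

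With no reference gene (differences in Ct alone) the same count was called, 6 higher and 0 lower, and the median difference over the 23 genes shifted by 0.19. The difference of dhrs3.L was 2.88, that of cyp26a1.S 2.29 and that of cyp26a1.L 1.86. On this scale the RA sample of clutch G still had a lower cyp26a1.L than its control, by -1.09, and a higher cyp26a1.S, by 1.55. The number of clutches with a lower rdh10.L changed with the scale: 6 of 6 against gapdh but 3 of 6 without it, with a mean of -0.39. Without a reference, clutches G, H and L were near 0, at 0.09, 0.09 and 0.08. Clutches I, J and K were at -1.09, -0.36 and -1.16.

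Against the mean of the target genes in each sample (the panel mean), 12 passed the test: 6 were higher and 6 lower (26.1% of 23), and each difference of the 22 genes with all values was -0.62 away from that against gapdh. The lower ones were 4 of the 5 synthesis genes (rdh10.L, rdh10.S, aldh1a2.L and sdr16c5.L), 1 gene of reduction and degradation (rdh14.L) and 1 of binding and transport. The panel mean contains the genes that rose. On this scale rdh10.L was at -1.20 and rdh10.S at -1.36, both lower in 6 of 6 clutches. The differences of dhrs3.L (2.07), cyp26a1.S (1.48) and cyp26a1.L (1.05) passed the test here too.

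**Figure D3:**
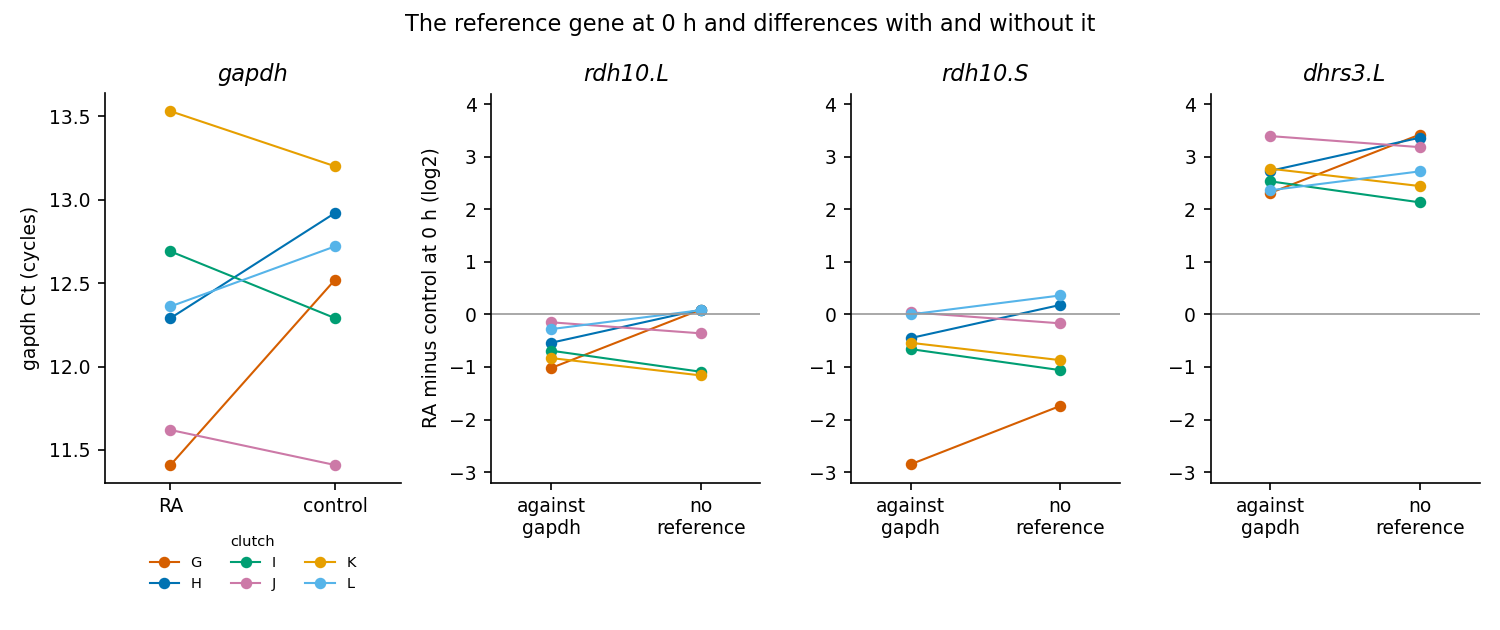
The first panel plots the Ct of gapdh (cycles) in RA and control embryos at 0 h by clutch, and the other panels plot the RA minus control difference (log2) of rdh10.L, rdh10.S and dhrs3.L against gapdh and without a reference. The gapdh lines run both ways, and dhrs3.L stays above 2 in every clutch on both scales. rdh10.L is below 0 in 6 clutches against gapdh but in 3 without it, where clutches G, H and L are at 0.08 to 0.09.

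The clutches differed in how many genes were higher in RA embryos. Of the 22 genes with values in all 12 samples, 16 were higher in clutch G, 16 in H, 17 in I, 9 in J, 15 in K and 12 in L, with medians of 0.52, 0.51, 0.53, -0.13, 0.65 and 0.08. Without the reference gene the counts were 20, 20, 12, 8, 12 and 18 and the medians 1.63, 1.14, 0.13, -0.34, 0.32 and 0.44. The order of the clutches was therefore not the same on both scales. Clutch J had the fewest genes higher on both. Its differences against gapdh of dhrs3.L (3.39), cyp26a1.L (3.14) and cyp26a1.S (2.93) were the largest of the 6 clutches, but without a reference they were 3.18, 2.93 and 2.72 and none was the largest.

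For pairs of homoeologs the L minus S difference within a sample cancels the reference gene, so the responses of the 2 copies can be compared without it. The copies were measured with separate primers, and whether these amplify with equal efficiency was not tested. Of 5 pairs, 0 differed in their response (0%, limma, adjusted over 5 pairs, with 0 at an unadjusted p under 0.05), which does not show that the copies respond alike. For cyp26a1 the L response minus the S response was -0.43 (95% interval -1.20 to 0.33), and clutch G alone gave -2.64 while the other 5 lay between -0.42 and 0.43, with a mean of 0.01. For rdh10 it was 0.16 (95% interval -0.58 to 0.90), with 1.83 in clutch G and -0.29 to -0.03 in the others. In clutch G the RA sample was thus lower in cyp26a1.L than in cyp26a1.S and lower in rdh10.S than in rdh10.L relative to its control, so neither subgenome was the lower one throughout.

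For cyp26c1 the response difference was 0.36 (95% interval -0.52 to 1.24), led by 1.72 in clutch H, and for crabp2 it was 0.34 (95% interval -0.87 to 1.54), from -0.47 to 1.24. The adjusted p was 0.670 for all of these pairs. The crabp2 copies had differences of the same sign in 4 of 6 clutches, including 1.46 and 1.64 in clutch G and -0.76 and -1.17 in clutch I for L and S.

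**Figure D4:**
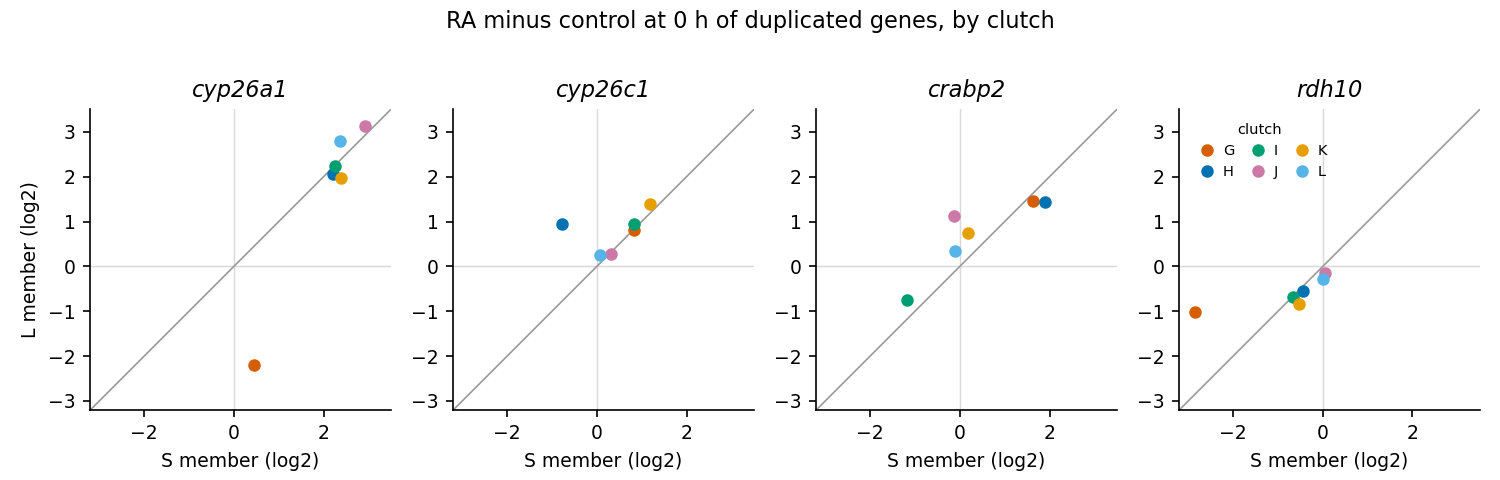
RA minus control difference (log2) of the L homoeolog plotted against that of the S homoeolog at 0 h, 1 point per clutch, for cyp26a1, cyp26c1, crabp2 and rdh10, with the line of equal response. Clutch G is far from the line for cyp26a1 (L minus S -2.64) and rdh10 (1.83), as is clutch H for cyp26c1 (1.72).

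To place the level reached at the end of the pulse on the course of untreated development, RA embryos at 0 h were set against control embryos 1.5 h after the wash. This comparison uses the same RA samples as the one above, so the 2 are not independent. RA embryos at 0 h were higher for 3 of 23 genes (13%) and lower for 6 (26.1%). dhrs3.L averaged -0.64 ± 0.40 in RA embryos at 0 h and -1.15 ± 0.61 in control embryos at 1.5 h (SD, n = 6 each), a difference of 0.52 (95% interval 0.03 to 1.005, adjusted p = 0.0910) that was above 0 in 6 of 6 clutches, from 0.16 to 1.05. The means of control embryos at 0, 1.5, 3 and 4.5 h were -3.32, -1.15, 0.45 and 0.86, so the RA mean at 0 h lay between the control means at 1.5 and 3 h.

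The homoeologs of cyp26a1 are given separately, and the difference between them was not tested in this comparison. cyp26a1.S averaged 0.59 ± 0.77 in RA embryos at 0 h and -0.83 ± 0.43 in control embryos at 1.5 h (SD, n = 6 each), a difference of 1.42 (95% interval 0.64 to 2.20, adjusted p = 0.00220, above 0 in 6 of 6 clutches). The control mean was 0.36 ± 0.22 at 3 h and -0.05 ± 1.11 at 4.5 h (SD, n = 6 each). The RA mean at 0 h was above the control mean at every time measured, but its differences from 3 and 4.5 h were not tested. The RA sample was below the control of its own clutch at 3 h in clutches G and J, and at 4.5 h in I and J. In the other clutches it was above. cyp26a1.L averaged -1.01 ± 1.83 in RA embryos at 0 h and -1.05 ± 0.43 in control embryos at 1.5 h, a difference of 0.04 (95% interval -0.81 to 0.88, adjusted p = 0.928), or 0.74 without clutch G. It was above 0 in 5 of 6 clutches.

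**Figure D5:**
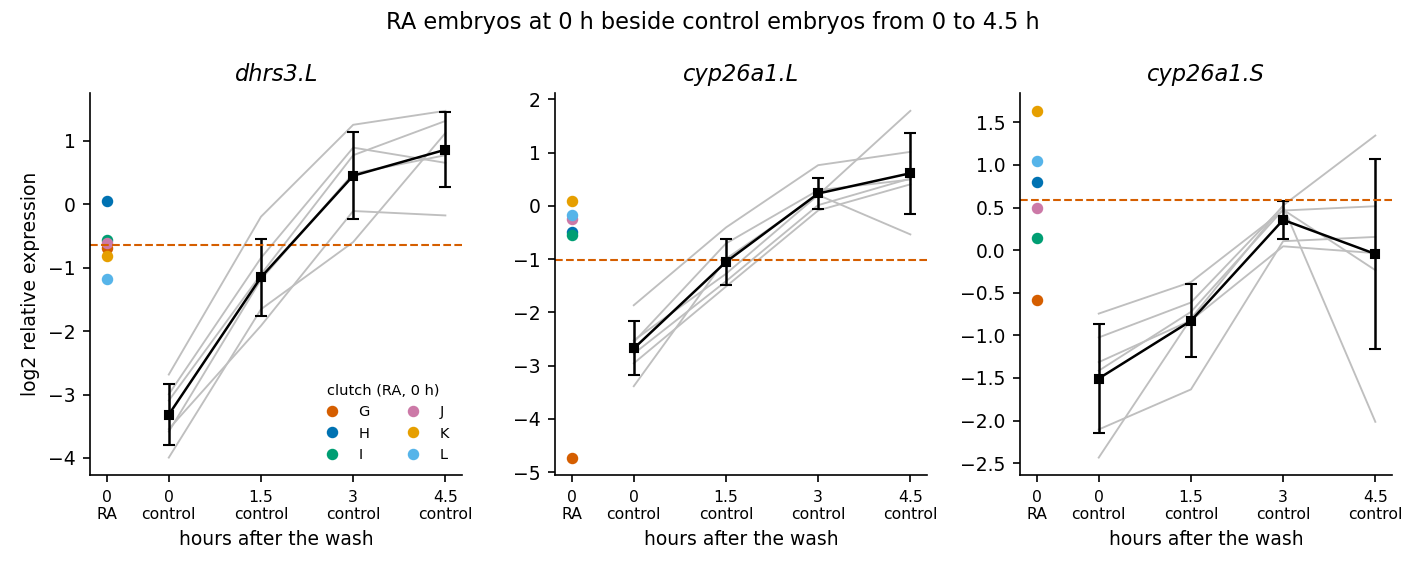
Log2 relative expression of dhrs3.L, cyp26a1.L and cyp26a1.S in RA embryos at 0 h (coloured points by clutch, dashed line at their mean) and in control embryos from 0 to 4.5 h after the wash (grey lines by clutch, squares and bars for the mean and SD of 6 clutches). The RA mean of dhrs3.L (-0.64) meets the control course between 1.5 and 3 h and that of cyp26a1.S (0.59) lies above every control mean. Some control samples at 3 and 4.5 h lie above the RA sample of their clutch for cyp26a1.S, and those differences were not tested.

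Of the 5 synthesis genes 4 were lower than in controls at 1.5 h and 0 higher, while the list of binding and transport had 2 lower and 0 higher out of 4, beside 6 lower of all 23. RA embryos at 0 h were below control embryos at 1.5 h by -1.50 for rdh10.L, -1.07 for rdh10.S, -1.29 for aldh1a2.L, -1.54 for aldh1a3.L, -2.12 for crabp2.L and -2.10 for crabp2.S, with limma adjusted p from 6.72e-08 to 0.00522. Control means at 0 h and 1.5 h were -1.325 and -0.41 for rdh10.L, -0.355 and -0.03 for rdh10.S, and -1.47 and -0.38 for aldh1a2.L. They were -2.79 and -1.24 for aldh1a3.L, -4.34 and -1.49 for crabp2.L, and -4.99 and -2.50 for crabp2.S. Untreated embryos at 0 h were thus also below those at 1.5 h, so these differences include change with time. None of these genes passed the test against controls at 0 h. The differences of sdr16c5.L (-0.13, adjusted p = 0.566) and stra6.L (0.045, adjusted p = 0.814) did not pass the test. The differences of rdh10.L, rdh10.S, aldh1a2.L, crabp2.L and crabp2.S were below 0 in 6 of 6 clutches. The reductase gene rdh13.L averaged 1.47 ± 0.84 in RA embryos at 0 h, beside 1.39 ± 0.82 in control embryos at 0 h and -0.06 ± 1.01 in control embryos at 1.5 h (SD, n = 6 each), and was higher by 1.53 against the 1.5 h controls (adjusted p = 3.12e-05, 6 of 6 clutches). hoxd3.L, the third gene that was higher, shared 2 clutches, H and K, between these groups.

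The split of this comparison depended on the reference. The Ct of gapdh was 12.3 ± 0.76 in RA embryos at 0 h and 13.0 ± 0.63 in control embryos at 1.5 h, a difference of -0.67 ± 0.89 (SD, n = 6; p = 0.25 by exact two-sided sign-flip permutation). With no reference gene the median difference shifted by 0.67, and 6 genes passed, 4 higher and 2 lower, the lower ones being rdh10.L (-0.83) and crabp2.L (-1.45). With the panel mean the shift was 0.48, and 11 genes passed the test, of which 6 were higher and 5 lower. dhrs3.L was called higher on both of these scales, by 1.18 without a reference and by 0.997 against the panel mean.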

How the data were processed

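The members and gene lists were chosen with earlier results of these data known. The authors reverse transcribed total RNA, preamplified the cDNA, measured it on microfluidic dynamic arrays with EvaGreen dye, kept for each gene the median over 3 preamplification runs (L primers, S primers, all genes) and normalized to gapdh. Unequal amplification efficiency would stretch or shrink differences. The authors deposited a table of Ct values and a table of log2 relative expression. All 1637 target values of the log2 table equalled those computed from the Ct table within 0.001. The 19 missing values, all of hoxd3.L, were left out. All 24 gene IDs matched the RefSeq table, which served for names and neighbours only because no build is given in the sources used here. For hoxd3.L and gapdh, the methods list the S member, whereas the tables have hoxd3.L and gapdh without a suffix.

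Groups and clutches came from the sample titles. limma 3.58.1 (R 4.3.3, lmFit and eBayes) was fitted to all 72 samples in 12 groups with clutch as a fixed block, the pairing coming from the shared female. Deviations of RA and control samples from their group means at 0 h correlated by 0.53 on average within a clutch (0.20 to 0.79, 6 of 6 above 0) and by -0.11 between clutches. Deviations from a group mean cancel over its clutches, so the second value largely follows from the first and is not separate evidence. Adjustment was by Benjamini-Hochberg over 23 target genes, with a threshold of 0.05. The median SE of a difference was 0.42. Tests per clutch were exact sign-flip permutation tests, with scipy 1.17.1 for Fisher's test. The script was tested on simulated data. For the limma fit these had independent noise per gene, no hoxd3.L and no missing values. Error shared through gapdh was therefore not covered by that test. Every gene past the threshold was to be given in full and every other gene by its list, except that 3 genes are in every fit and count but are not reported here singly.

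Alternatives were no clutch block, a clutch-by-time block, only the 12 samples compared, no reference gene, the panel mean, robust eBayes, hoxd3.L left out, exact sign-flip tests per gene and each clutch left out.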

Additional observations from a re-analysis of the deposited data

Results flagged for a closer look

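A sample far from the other 5 of its group, by Dixon's criterion, was found in 6 of the 60 sets of 6 values tested, and chance flags about 1 in 20. Of these, 5 were in the RA sample or the RA minus control difference of clutch G. The sets are not independent: a level also enters its difference, and all genes of a sample share its gapdh Ct. One odd value can thus be flagged more than once, as for cyp26a1.L. The level of cyp26a1.L in the RA sample of clutch G was -4.725, against -0.545 to 0.095 in the other RA samples, and its RA minus control difference was -2.20, against 1.96 to 3.14. The difference of cyp26a1.S in clutch G was 0.44, against 2.21 to 2.93. In differences of Ct alone cyp26a1.S was at 1.55 in clutch G, against 1.85 to 2.84. The difference of rdh10.S in clutch G was -2.85, against -0.66 to 0.04. In differences of Ct alone rdh10.S was at -1.74 in clutch G, against -1.06 to 0.36. The level of rdh14.L in the RA sample of clutch G was 0.435, against -0.915 to -0.435, and its own control, at 0.295, was also the highest of the 6 controls. In clutch H the control level of hoxd4.L was -3.675, against -2.225 to -1.595 in the other control samples. The RA sample of that clutch was at -3.495, the lowest of the 6 RA samples. The gapdh Ct of the RA sample of clutch G was 1.11 cycles below that of its control, the largest difference of the 6 clutches, and its part in these values was not tested.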

How the results depend on the processing

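The numbers of genes called, 6 at 0 h, 0 pairs and 9 against controls at 1.5 h, were 6, 0 and 9 with no clutch block as well. Without that pairing the counts at an unadjusted p under 0.05 were 6 in place of 7 at 0 h and 9 in place of 10 against 1.5 h controls. The clutch-by-time block called 6 genes at 0 h, all higher, and 0 pairs. At 0 h it had 10 genes in place of 7 at an unadjusted p under 0.05. With this block rdh10.L, cyp26c1.L and crabp2.L each had a limma adjusted p of 0.0867. Leaving out each clutch in turn gave 6 to 7, 0 to 0 and 9 to 10. The panel mean gave 12 at 0 h. Exact sign-flip tests gave 0 at 0 h and 0 against 1.5 h controls, where at 0 h 14 of the 22 genes would have to reach the smallest p for any to pass, with 6 and 9 at an unadjusted p under 0.05. Fitted to the 12 samples compared, 6 were called against the 1.5 h controls, and at 0 h 5 higher and 1 lower (rdh10.L). The 5 higher at 0 h were not the same set as in the main fit. They included cyp26c1.L but not cyp26a1.L, and hoxd3.L could not be estimated. Without hoxd3.L 5 and 8 were called.

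Among genes reported singly, changes of sign occurred only in differences that were not called. With the panel mean sdr16c5.L was at -0.56, aldh1a3.L at -0.60, rdh13.L at -0.54, cyp26c1.S at -0.21, crabp2.S at -0.23, stra6.L at -0.46, hoxa3.S at -0.056 and hoxd4.L at -0.46, of which sdr16c5.L passed the test (adjusted p = 0.0246). With no reference gene rdh14.L was at 0.11 and hoxb4.S at 0.10. Without 1 clutch, aldh1a3.L ran from -0.33 to 0.41, rdh13.L from -0.016 to 0.22, hoxb4.S from -0.24 to 0.10 and hoxd4.L from -0.10 to 0.51, and cyp26a1.L against 1.5 h controls from -0.22 to 0.74. A change of reference moves each of these differences at 0 h by the same amount, -0.62 with the panel mean and 0.19 with no reference gene. Against 1.5 h controls the difference of cyp26a1.L went from 0.04 to 0.52 with the panel mean and to 0.71 with no reference gene. The cause of the changes without 1 clutch was not tested. Signal depth could not be assessed, since Ct gives no template number.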
